A study of Mus musculus with 3 samples.

Results

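The solute carrier (SLC) genes of mouse lung macrophages are described here across 3 RNA-seq libraries. The members are the 169 genes whose symbol begins with Slc and a digit and whose deposited signal reached 100 in at least 1 library, after 5 symbols were left out by name (Slc7a2, Slc40a1, Slc11a1, Slc2a1 and Slc39a14). They were taken from 218 such symbols among 12880 genes in all, and the other 44 stayed under the minimum in the signal columns used. Among these 44, Slc39a8 and Slc4a11 reached it only in a column with a mismatched heading, which was given to no sample. Of the 169, 164 name a carrier or a carrier's subunit, and 5 carry an SLC-based symbol without being carriers (Slc9a3r1, Slc9a3r2, Slc7a6os, Slc4a1ap and Slc2a4rg-ps). The level itself chose the members, so the level is a description and not a result. Just inside the minimum stood Slc22a4 at a highest signal of 105 and Slc13a3 at 110.4, and just outside it Slc39a8 at 99.5, Slc4a11 at 99.4 and Slc25a23 at 88.3.

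The cells came from lungs of LysM-GFP mice on the C57BL/6 background, 6 to 8 weeks old, in which green fluorescent protein marks myeloid cells. Acute lung injury was set off by nebulized lipopolysaccharide (LPS), a bacterial cell wall component, in saline at 1 mg/ml, and the labels give that treatment for all 3 libraries, the 0 h library included. Digested lungs were sorted for GFP+, Ly6g- and CD64+ cells, a gate meant to keep mature macrophages and remove neutrophils. The tables' headings also name CD11b, which the account of the sort does not list. There was 1 library at 0 h, 1 at 4 h and 1 at 24 h, the labels do not say how many mice each held, and no difference below has a replicate check.

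Solute carriers are membrane proteins that move small molecules along or against gradients, often coupling the substrate to sodium, protons or a counter-substrate. They are numbered by family: SLC7 light chains pair with the SLC3 heavy chain to exchange amino acids, SLC2 members move glucose and other hexoses, SLC25 members sit mostly in the inner mitochondrial membrane, SLC30 and SLC39 move zinc out of and into the cytosol, and SLC35 members feed nucleotide sugars to the Golgi. In macrophages, carriers set the supply of cystine for glutathione, of glucose and lactate exchange, and of iron, zinc and copper, and lysosomal carriers return amino acids and heme products from digested material to the cytosol.

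Promoter sequences were matched by symbol to a RefSeq table (GRCm38.p6, 250 bases before to 50 after each gene's start), and 129 of the 169 members had an entry. The windows printed are those of Slc26a4, Slc1a2 and Slc7a11, which with Slc6a14 had the 4 highest ratios of 4 h to 0 h, Slc30a1, a zinc exporter whose promoter held 2 of the motifs searched, and Slc22a17, which had the lowest ratio among members with an entry. They were chosen after the values were seen, and capitals mark motif matches.
Slc26a4 promoter (chr12:31559935-31560234, minus strand): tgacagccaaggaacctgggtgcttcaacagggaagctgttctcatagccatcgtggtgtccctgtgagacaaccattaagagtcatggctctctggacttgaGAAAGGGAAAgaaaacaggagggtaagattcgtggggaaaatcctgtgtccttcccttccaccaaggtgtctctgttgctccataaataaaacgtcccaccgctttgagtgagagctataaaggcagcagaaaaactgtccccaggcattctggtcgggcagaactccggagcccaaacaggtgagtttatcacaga
Slc1a2 promoter (chr2:102706188-102706487, plus strand): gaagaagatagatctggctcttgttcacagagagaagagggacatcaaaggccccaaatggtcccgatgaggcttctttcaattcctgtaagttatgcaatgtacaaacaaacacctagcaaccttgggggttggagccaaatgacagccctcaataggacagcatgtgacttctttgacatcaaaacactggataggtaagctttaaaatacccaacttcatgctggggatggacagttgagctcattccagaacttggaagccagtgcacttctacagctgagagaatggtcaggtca
Slc7a11 promoter (chr3:50443564-50443863, minus strand): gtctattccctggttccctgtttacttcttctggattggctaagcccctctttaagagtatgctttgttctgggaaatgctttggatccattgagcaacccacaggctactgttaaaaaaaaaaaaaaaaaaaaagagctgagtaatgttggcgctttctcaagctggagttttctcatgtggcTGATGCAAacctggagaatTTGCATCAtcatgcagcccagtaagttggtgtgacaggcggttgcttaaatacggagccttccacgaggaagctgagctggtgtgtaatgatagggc
Slc30a1 promoter (chr1:191906531-191906830, plus strand): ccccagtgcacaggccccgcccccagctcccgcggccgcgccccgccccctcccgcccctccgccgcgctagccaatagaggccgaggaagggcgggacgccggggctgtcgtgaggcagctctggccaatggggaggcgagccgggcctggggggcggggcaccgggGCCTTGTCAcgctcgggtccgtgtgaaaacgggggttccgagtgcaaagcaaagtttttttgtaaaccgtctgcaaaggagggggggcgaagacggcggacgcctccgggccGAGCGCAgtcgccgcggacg
Slc22a17 promoter (chr14:54913083-54913382, minus strand): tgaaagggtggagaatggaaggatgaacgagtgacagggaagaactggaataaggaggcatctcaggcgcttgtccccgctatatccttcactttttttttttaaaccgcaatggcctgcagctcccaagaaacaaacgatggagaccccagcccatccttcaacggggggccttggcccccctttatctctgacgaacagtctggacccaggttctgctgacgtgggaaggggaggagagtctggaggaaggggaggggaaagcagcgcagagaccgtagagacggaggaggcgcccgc
Both strands were searched for 6 motifs. The interferon response motif, of paired GAAA runs, occurred at 1 place in the Slc26a4 promoter, at 147 bases before the start, and in 3.44% of all 32851 promoters. The amino acid response motif, TGATGNAA, occurred at 2 places in the Slc7a11 promoter and in 3.97% of all promoters. In the window as printed, 1 lay 66 bases before the start and the other, as the reverse complement, 47 bases before it. The antioxidant response motif, TGACNNNGC, lay 82 bases before the start of Slc30a1 (12.4% of all promoters), and the metal response motif, TGCGCNC, 31 bases after it (15.4% of all promoters). Among the 18 members with an entry that were at least 2-fold higher at 4 h than at 0 h, Slc26a4 was the 1 with the interferon motif and Slc7a11 the 1 with the amino acid motif. Neither motif was found in the 19 lower members with an entry, and 2 of the 92 members between held each. The kappaB motif was found in 0 of the 129 member promoters and 0.411% of all promoters. The metal motif was in 4 of the 18 higher and 4 of the 19 lower members, and the antioxidant motif in 2 of 18, 1 of 19 and 21 of the 92 between. The E-box, CACGTG, was in 3 of 18 and 4 of 19, beside 20 of all 129 member promoters and 7.15% of all promoters. None of the 6 occurred in the Slc1a2 or Slc22a17 window.

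Depth was similar across the libraries, at 20379236 to 25135476 reads in genes, and members took 1.03% to 1.15% of them. Of the 6 pan-macrophage markers, 1 was at least 2-fold higher and 1 lower at 4 h than at 0 h. Csf1r, the receptor for colony-stimulating factor, was at size-factor normalized counts of 29976, 40025 and 29673 in the order 0 h, 4 h and 24 h. Fcgr1, which encodes the sorted marker CD64, was the higher, at 2479, 7237 and 2887, and Mertk, a receptor for dying cells, the lower, at 10552, 1673 and 3194. The makeup of marker genes differed between libraries. Of 13 alveolar macrophage markers measured, 11 were at least 2-fold lower and none higher at 4 h than at 0 h (summed level 770250 at 0 h, 285704 at 4 h and 443828 at 24 h). At 24 h 1 of the 13 was lower than at 0 h (median log2 ratio -0.41), and Chi3l3 made up most of the sum, at 601110.0, 209378 and 310123. Of 10 classical monocyte markers, 9 were higher at 4 h and, at 24 h against 0 h, 7 were higher and 1 lower (summed level 104128, 451109 and 85617). The lower 24 h sum rests on Fn1, fibronectin, at 87223, 131482 and 25383, whereas Ccr2, the monocyte chemokine receptor, was at 2603, 69394 and 13826. Of the 9 neutrophil markers compared, 9 were higher at 4 h and 6 at 24 h (4909, 39308 and 7973). Ly6g had no value in the tables. The 11 lung epithelial markers summed to 16637, 18521 and 16664, and 4 were at least 2-fold higher and 2 lower at 4 h than at 0 h. Among them Scgb1a1, the club cell secretory protein, stood at 90.6, 3977 and 105, Epcam at 953, 159 and 334 and Cdh1 at 2179, 709.6 and 916. The erythroid genes Beta-s, a hemoglobin chain, and Alas2, of heme synthesis, were at 46.7, 1018 and 1664 and at 4.67, 112 and 105. Markers of T and NK cells summed to 14.9, 149 and 149.6 and those of B cells to 38.3, 114 and 282. The Xist transcript had 13705, 4 and 1 reads in that order, while the Y-linked Ddx3y had 4, 3994 and 2357, so the sex of the mice and the time point cannot be told apart between 0 h and the later libraries. In bulk samples such as these, fewer cells of a type and less RNA per cell cannot be told apart either, and the part of cell makeup in any member's difference was not tested.

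Levels below are counts divided by the library's size factor, given in the order 0 h, 4 h and 24 h. A fold is the plain ratio of these levels with its 95% Clopper-Pearson interval in parentheses. That interval holds counting error alone, without the spread between mice. Gene positions are in mm10 and count bases from 1. A member is counted as higher or lower when its fold was at least 2.

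At 4 h, 24 of the 169 members were at least 2-fold higher than at 0 h, beside 13.3% of all 10391 genes that reached the same minimum, and 24 were lower, beside 13% of all genes. The members' median log2 ratio was -5.1e-05 and that of all genes -0.01, with 84 members above 0 and 85 below. The family therefore held about as many differing genes in each direction as the transcriptome did. Of the 169, 20 were under 100 in at least 1 library, and 6 of the 24 higher and 9 of the 24 lower members were under 100 in the library where they were low, so part of those counts follows from the minimum. In the same 4 h library the alveolar macrophage markers summed to 285704 against 770250 at 0 h and the classical monocyte markers to 451109 against 104128, and their part in these counts was not tested. By 24 h, 18 of the 24 that had been higher and 18 of the 24 that had been lower were within 2-fold of 0 h. Of all 169 members 148 were, and both ratios rest on the same 0 h library. At 24 h against 0 h, 2 members were higher (background 3.43%) and 19 lower (background 7.8%), with a median log2 ratio of -0.18 against 0.003 for all genes. With ribosomal protein genes held level these counts became 0 and 46, beside 127 and 2042 of all 10391 genes. By the log2 fold changes in the authors' deposited table, which gives them for 167 members, they were 0 and 5. The 2 higher members were Slc2a3 and Slc26a11.

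**Figure D1:**
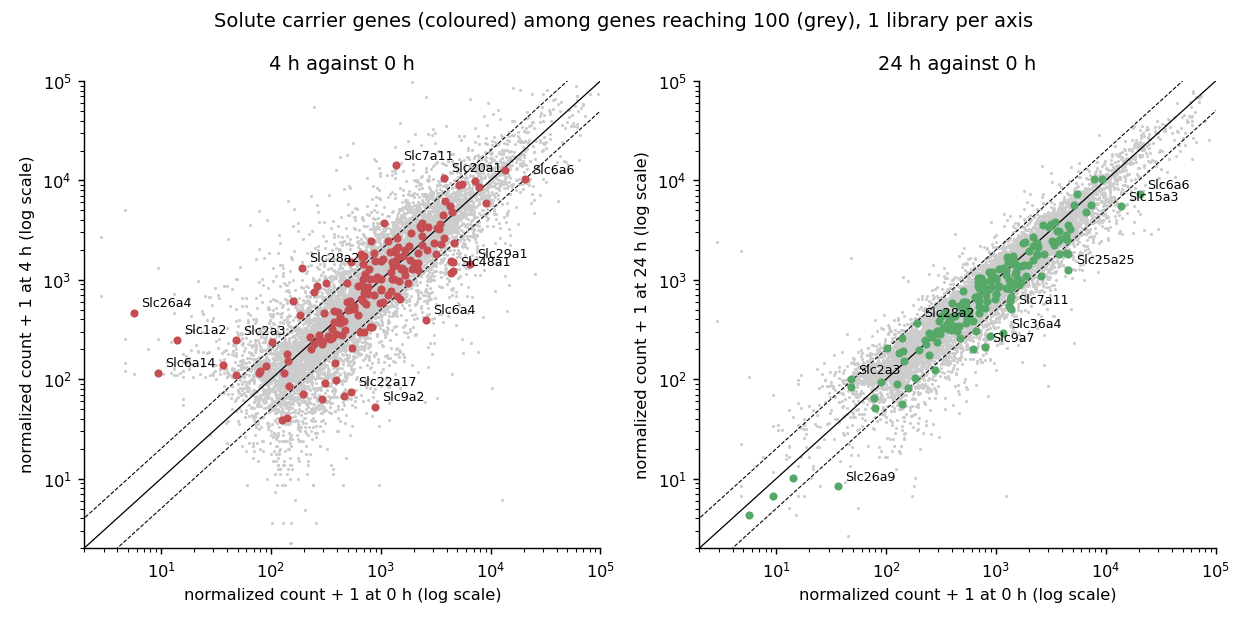
Each coloured point is a solute carrier gene and each grey point any gene that reached the minimum, with the normalized count plus 1 at 0 h on the horizontal axis and at 4 h (left) or 24 h (right) on the vertical axis, all on log scales. The solid line marks equal levels and the dashed lines 2-fold differences, and by the plain ratio 24 members are past 2-fold in each direction at 4 h, while at 24 h 2 are higher and 19 lower.

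The highest of a member's 3 levels was at 4 h in 72 members (background 40.2%), at 0 h in 55 (background 27.8%) and at 24 h in 42 (background 32%). In 56 members the highest and lowest levels differed by under 1.5-fold, in 68 by at least 2-fold and in 6 by at least 10-fold. The flattest was Slc25a13, a mitochondrial aspartate and glutamate carrier, at 374, 374 and 382. The 6 widest were Slc26a4, Slc7a11, Slc1a2, Slc6a14, Slc26a9 and Slc9a2, of which the first 5 were highest at 4 h. Slc26a4, Slc1a2, Slc6a14 and Slc26a9 reached the minimum in the 4 h library alone, so their 4 h peak follows from the minimum.

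**Figure D2:**
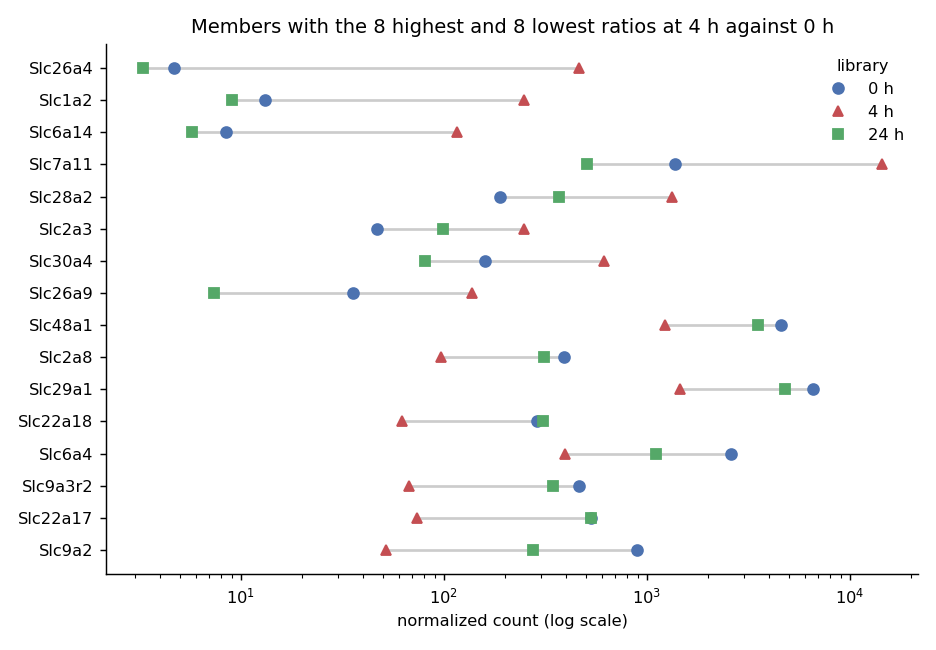
Normalized counts (log scale) of the members with the 8 highest and the 8 lowest ratios of 4 h to 0 h, with a circle for 0 h, a triangle for 4 h and a square for 24 h, 1 library each. The triangle is the rightmost symbol in the upper 8 members and the leftmost in the lower 8, and the 0 h and 24 h symbols lie closest together for Slc22a17, at 531 and 532.

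Compared per kilobase of exon, so that genes of unlike length can be set side by side, the most abundant member in every library was Slc25a5, the mitochondrial adenine nucleotide carrier (chrX:36795597-36798808, plus strand), at 5576, 3569.8 and 6325 normalized counts per kb. Reads of Slc25a5 may be shared with processed pseudogenes, so its level is uncertain. Next at 0 h came Slc15a3, a lysosomal transporter of histidine and small peptides, at 2484, 2345 and 996, and Slc6a6, the taurine transporter, at 2413, 1209 and 864. At 4 h the second was Slc3a2, the heavy chain of the amino acid exchangers, at 2061, 2773 and 1594. At 24 h it was Slc25a3, the mitochondrial phosphate carrier, at 1402, 1535 and 1849. Mitochondrial carriers made up 25.5% of the members' summed per-kb level at 0 h, 21.1% at 4 h and 32.7% at 24 h. Amino acid and peptide carriers made up 22.9%, 24.3% and 15.8%.

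Among the 26 amino acid and peptide carriers, 5 were at least 2-fold higher and 2 lower at 4 h than at 0 h. Over all genes the shares were 13.3% and 13%. Slc7a11, the light chain of the cystine and glutamate exchanger (chr3:50364936-50443613, minus strand), had levels of 1378, 14308 and 505 and was 10.4-fold higher (9.83 to 11) at 4 h. At 24 h it lay below its starting level, 2.73-fold lower (2.48 to 3.0) than at 0 h. Its partner Slc3a2 (chr19:8706882-8713897, minus strand) differed much less, at 7274, 9785 and 5625, and was 1.35-fold higher (1.30 to 1.39) at 4 h. The other light chains that pair with Slc3a2 were not uniform. Slc7a5, which carries leucine and other large neutral amino acids, was at 1616, 1269 and 887 and was 1.27-fold lower (1.18 to 1.38) at 4 h and 1.82-fold lower (1.69 to 1.97) at 24 h. Slc7a8, another carrier of neutral amino acids, was at 1369, 2053 and 678, highest at 4 h. Slc7a6, a carrier of cationic and neutral amino acids, was at 497, 919 and 477, and Slc7a7, of the same type, at 1321, 1027 and 1003, with its highest level at 0 h.

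The group's largest folds were in genes with few reads at 0 h and 24 h. Slc1a2, a glutamate transporter best known from astrocytes (chr2:102706438-102790784, plus strand), had 14, 196 and 11 reads, levels of 13.1, 248.8 and 9.04, and was 19-fold higher (11.1 to 35.5) at 4 h. Slc6a14, a broad neutral and cationic amino acid transporter on the X chromosome (chrX:21714900-21742357, plus strand), had 9, 91 and 7 reads, levels of 8.40, 116 and 5.75, and was 13.7-fold higher (6.93 to 31). Both had a low level in the other libraries, and their 24 h to 0 h intervals included 1. They reached the minimum in the 4 h library alone, so their 4 h peak follows from the minimum. Slc6a14 is also a gene of airway epithelium, and the epithelial marker Scgb1a1 was high in the same library (3977 against 90.6 at 0 h and 105 at 24 h). Of the 11 epithelial markers, 4 were at least 2-fold higher at 4 h than at 0 h and 2 lower. The lower were Epcam and Cdh1, general epithelial markers (159 against 953 and 709.6 against 2179 at 0 h). The higher were Scgb1a1, Sftpd, Krt8 and Krt18. The part of epithelial cells in the result was not tested. Slc15a2, a plasma membrane peptide transporter, was at 246, 755 and 173 and was 3.08-fold higher (2.66 to 3.57) at 4 h.

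Carriers for glutamine and the lysosome differed less. Slc38a2, a sodium-coupled glutamine and alanine transporter, was at 5190.3, 8997 and 5634, and Slc38a1, its relative, at 3678, 4447 and 2450.4, both highest at 4 h. Slc1a5, another glutamine carrier, stayed within 1.5-fold at 2389, 2785 and 2319.7. Slc38a9, the lysosomal arginine sensor of the mTORC1 pathway, was at 866, 1862 and 1189 and was 2.15-fold higher (1.98 to 2.34) at 4 h. Of the lysosomal peptide and histidine carriers, Slc15a3 (chr19:10842544-10857915, plus strand) was at 13637, 12875 and 5470.2 and Slc15a4, which is needed for endosomal Toll-like receptor signalling, at 2197, 1491 and 2180.0. They did not follow each other: Slc15a3 was nearly level at 4 h and 2.49-fold lower (2.42 to 2.57) at 24 h, while Slc15a4 was lower at 4 h and back at its starting level at 24 h. Slc36a1, a lysosomal proton and amino acid symporter, was at 2179, 1871 and 1592.

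The transporters of taurine and serotonin had lower levels at 4 h, and the 2 members past the threshold were Slc6a4 and Slc38a10. Slc6a6 (chr6:91684067-91759063, plus strand) was at 20409, 10223 and 7309, 2.0-fold lower (1.95 to 2.05) at 4 h, just short of the threshold before rounding, and 2.79-fold lower (2.72 to 2.86) at 24 h. Slc6a4 (chr11:76998597-77032343, plus strand), which takes up serotonin and is placed here with its family, was at 2588, 395 and 1103 and was 6.55-fold lower (5.83 to 7.39) at 4 h. Slc38a10, a glutamine and alanine carrier, was at 4679.5, 2331 and 3227 and was 2.01-fold lower (1.90 to 2.12) at 4 h, which puts it past 2-fold by little.

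At 24 h, 24 of the 26 amino acid and peptide carriers were below their 0 h level, beside 104 of all 169 members. By at least 2-fold, 7 were lower (background 7.8%) and none higher (background 3.43%). The median log2 ratio was -0.55, beside 0.003 for all genes. With ribosomal protein genes held level, the 7 became 14 and the median -1.01. Under that scaling 2042 of all 10391 genes were at least 2-fold lower, and the median of all genes was -0.46. The 7 were Slc36a4, Slc6a6, Slc7a11, Slc15a3, Slc7a1, Slc6a4 and Slc7a8. Slc36a4, a proline and tryptophan carrier (chr9:15709769-15738789, plus strand), had the largest fold, at levels of 1170.1, 704 and 288, 4.07-fold lower (3.61 to 4.59). Slc7a1, the arginine and lysine transporter, was at 1313, 1954 and 544: highest at 4 h, and 2.41-fold lower (2.20 to 2.65) at 24 h. Against 0 h, the 24 h library had 1 alveolar macrophage marker of 13 at least 2-fold lower. It had 7 monocyte markers of 10 higher with 1 lower, and 6 neutrophil markers of 9 higher. Their part in these carriers' levels was not tested. Slc38a9 and Slc38a2 were the 2 above their 0 h level. Under every scaling tried, 21 or more of the 26 were below 0 h. With total reads 21 were, beside 86 of all 169 members. With ribosomal protein genes held level all 26 were, beside 157 of all 169 members, so that count is near the general share.

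**Figure D3:**
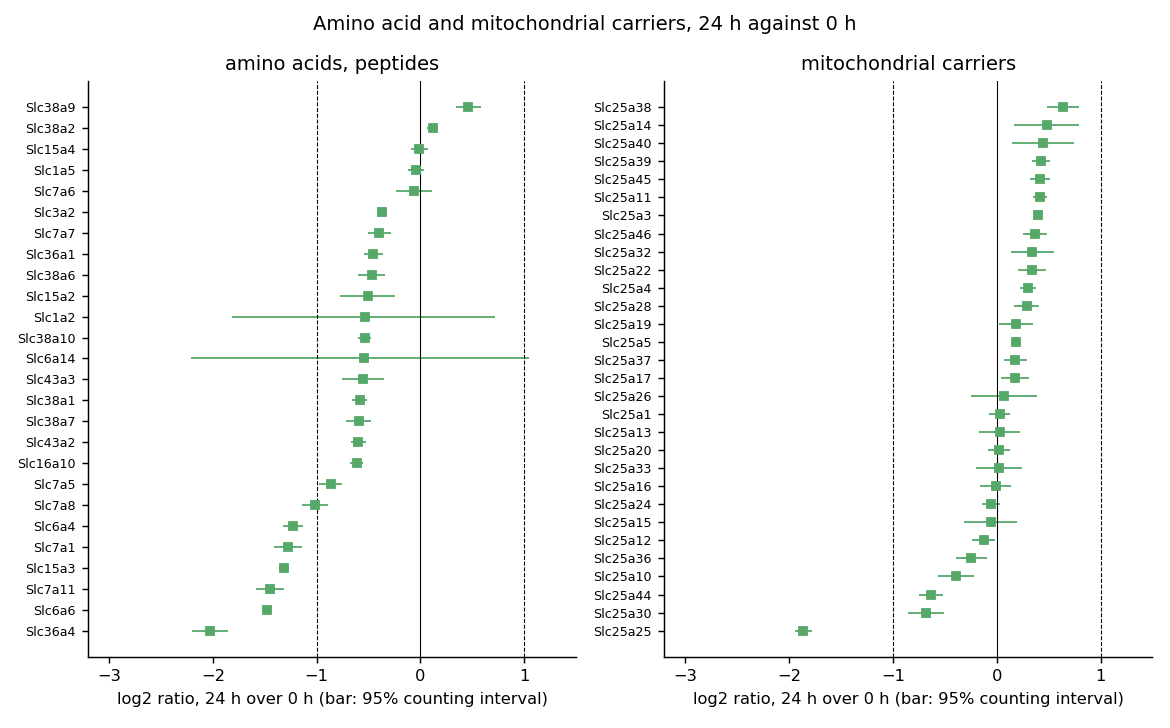
Log2 ratio of 24 h to 0 h (horizontal axis) for the 26 amino acid and peptide carriers (left) and the 30 mitochondrial carriers (right), 1 member per row, with 95% counting intervals as bars and dashed lines at 2-fold. On the left 24 members lie below 0, and on the right 21 lie above 0 and 1, Slc25a25, lies beyond the lower dashed line. Of all 169 members, 104 had a log2 ratio below 0 and 65 above.

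Most mitochondrial carriers were close to their 0 h level at both later times. Of 30, 2 were higher (background 13.3%) and 3 lower (background 13%) at 4 h than at 0 h. At 24 h 21 stood above their 0 h level, beside 65 of all 169 members, with a median log2 ratio of 0.18. This depended on the scaling: with ribosomal protein genes held level, 2 of the 30 stood above 0 h and the median was -0.29. Under that scaling 12 of all 169 members stood above 0 h, and the median of all genes was -0.46. The abundant nucleotide and phosphate carriers differed in their 4 h value. Slc25a5 was at 9178, 5876 and 10411, 1.56-fold lower (1.51 to 1.62) at 4 h, and its close relative Slc25a4 at 2181, 1258 and 2695, 1.73-fold lower (1.61 to 1.87), whereas Slc25a3 was at 7779.9, 8519 and 10263, highest at 24 h.

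Carriers of citric acid cycle intermediates had their lowest levels at 4 h and were within 1.5-fold of 0 h at 24 h. Slc25a1, which exports citrate for fatty acid synthesis, was at 1417, 679 and 1446 and 2.09-fold lower (1.89 to 2.31) at 4 h. Slc25a10, the dicarboxylate carrier, was at 544, 206 and 414 and 2.64-fold lower (2.22 to 3.17). Slc25a11, which exchanges malate and 2-oxoglutarate, was at 2665, 1980.2 and 3549.8, lowest at 4 h. Slc25a20, which brings acylcarnitines in for fatty acid oxidation, did not share this and was flat at 1236, 1197 and 1257. The 2 higher members at 4 h were Slc25a37, mitoferrin, the iron importer, at 1157, 2464 and 1311 and 2.13-fold higher (1.98 to 2.29), and Slc25a22, a glutamate carrier, at 684, 1452 and 865. Scaled by total reads or the upper quartile, 0 of the 30 were past 2-fold higher and 4 lower. The erythroid genes Beta-s and Alas2 were also higher at 4 h (1018 against 46.7 and 112 against 4.67 at 0 h), and their part in the iron and heme carriers' levels was not tested. Slc25a38, a glycine carrier needed for heme synthesis, was at 497, 604 and 772, the highest ratio of the group at 24 h. The lowest ratio of the group, at 4 h and at 24 h, was that of Slc25a25, a calcium-regulated ATP-Mg and phosphate carrier (chr2:32414487-32424066, minus strand), at 4578, 1514 and 1259: 3.02-fold lower (2.84 to 3.22) at 4 h and 3.64-fold lower (3.43 to 3.85) at 24 h.

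Of the 10 sugar carriers, 1 was higher (background 13.3%) and 1 lower (background 13%) at 4 h. Slc2a3, the high-affinity glucose transporter (chr6:122727809-122742745, minus strand), had 50, 195 and 120 reads, levels of 46.7, 248 and 98.6, and was 5.30-fold higher (3.87 to 7.39) at 4 h and still 2.11-fold higher (1.51 to 3.0) at 24 h. It is 1 of the 2 members counted as higher at 24 h, from a low start. Slc2a6, a lysosomal hexose transporter of myeloid cells, was more abundant per kb and highest at 4 h, at levels of 1882, 2941 and 1102. Slc2a8, another intracellular hexose transporter, was at 388, 96.5 and 309.8 and 4.03-fold lower (3.15 to 5.21) at 4 h. The sugar-phosphate carriers of the endoplasmic reticulum were within 1.5-fold of 0 h at both later times, with Slc37a2 at 573, 543 and 436, Slc37a3 at 906, 1015 and 849.7 and Slc37a4, the glucose 6-phosphate transporter, at 344, 250.1 and 474.

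The 6 carboxylate carriers included the lactate transporters. Slc16a3, the lactate exporter of glycolytic cells, was at 3748, 2609.8 and 3114, lowest at 4 h, and Slc16a1, which moves lactate in both directions, at 799, 1022 and 523, highest at 4 h. The 1 member past 2-fold was Slc16a6, at 533, 1497 and 366 and 2.81-fold higher (2.54 to 3.11). Of all genes, 13.3% were at least 2-fold higher at 4 h. Slc16a6 overlaps Amz2 and Arsg on the other strand, and whether the counting used strand is not known. Slc13a3, a sodium-coupled dicarboxylate transporter, was at 76.6, 114 and 64.1. In the list of 18 sugar and lactate use genes measured alongside, 2 were higher (background 13.3%) and 2 lower (background 13%) at 4 h. Pfkfb3, which makes the activator of phosphofructokinase, was at 1685, 3819 and 1283 and Ldhb, a lactate dehydrogenase subunit, at 76.6, 231 and 139. Aldoa, an aldolase, was at 21854, 9271 and 22402 and Pdk1, which restrains pyruvate oxidation, at 1111, 305 and 988, and both were lowest at 4 h. Gapdh was listed at only 131, 110 and 151 reads, which is low for an abundant enzyme, so genes with many near-identical copies are uncertain in these tables.

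The list of amino acid sensing and use genes gave 3 higher (background 13.3%) and 5 lower (background 13%) of 27 at 4 h. At 24 h against 0 h it gave none of either kind (background 3.43% and 7.8%). The higher ones were Arg2, the mitochondrial arginase, at 126, 1417 and 93.7, Asns, asparagine synthetase, at 139, 618 and 218, and Gsr, glutathione reductase, at 8888, 23741 and 12561. All 3 were highest in the 4 h library, where Slc7a11 was also highest. Of the glutathione synthesis genes, Gclc was at 1278, 1856 and 809 and Gclm at 709.7, 499 and 536, with their highest levels at 4 h and at 0 h respectively. The serine synthesis enzyme Phgdh was among the lower genes, at 1133, 333 and 1227.

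Nucleoside and nucleotide sugar carriers held 1 higher (background 13.3%) and 1 lower member (background 13%) among 21 at 4 h. The pair lies at the cell surface. Slc28a2, a concentrative sodium-coupled purine nucleoside importer (chr2:122426477-122461130, plus strand), was at 189.6, 1326 and 371 and 7.0-fold higher (6.02 to 8.17) at 4 h. Slc29a1, an equilibrative nucleoside transporter (chr17:45585200-45595572, minus strand), was at 6542, 1458 and 4776 and 4.49-fold lower (4.21 to 4.78). Per kb, Slc29a1 was the more abundant in every library, at 1632, 364 and 1192 against 45.1, 315 and 88.1 for Slc28a2, and the gap was smallest at 4 h. Slc29a3, the lysosomal nucleoside transporter, was at 1412, 2662 and 855, highest at 4 h. The Golgi and endoplasmic reticulum SLC35 carriers lay within 2-fold of 0 h at 4 h in every case, with Slc35c2 at 3190.0, 1808 and 3665 as the lowest ratio.

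Among the 23 metal and heme carriers, 4 were higher (background 13.3%) and 4 lower (background 13%) at 4 h. The higher 4 move zinc, copper and iron. Slc30a4, a vesicular zinc transporter (chr2:122681233-122702663, minus strand), was at 159, 617 and 80.5 and 3.89-fold higher (3.26 to 4.66). Slc30a1, the zinc exporter of the plasma membrane, whose promoter is shown above (chr1:191906781-191913247, plus strand), was at 318, 934 and 436 and 2.94-fold higher (2.58 to 3.36). Slc31a1, the copper importer (chr4:62360701-62391769, plus strand), was at 1064, 3767 and 1279 and 3.54-fold higher (3.31 to 3.80). Slc11a2, the divalent metal transporter that takes iron into the cytosol, was at 708, 1742 and 625 and 2.46-fold higher (2.25 to 2.69). For all 4 the 4 h library was the highest, and at 24 h each was within 2-fold of 0 h. Slc31a1 overlaps Cdc26, and Slc11a2 overlaps Gm5475, on the other strand.

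The lower 4 were the heme transporter Slc48a1, the zinc carriers Slc39a11 and Slc39a12, and the magnesium carrier Slc41a3. Slc48a1, which returns heme from phagolysosomes after red cell uptake (chr15:97784365-97792692, plus strand), was at 4555, 1225 and 3542 and 3.72-fold lower (3.47 to 3.99) at 4 h. It overlaps Hdac7 on the other strand. Slc39a11 was at 1514, 638 and 1185 and Slc41a3 at 649, 301 and 675. Slc39a2, a zinc importer, was at 3570.1, 2289 and 3071 and 1.56-fold lower (1.47 to 1.65) at 4 h. The zinc importers most abundant per kb differed less: Slc39a1 was at 3236, 3303 and 2460.2 and Slc39a7, which releases zinc from the secretory pathway, at 3437, 3615 and 3824. Slc31a2, a copper carrier of endosomes, was at 2261, 3515 and 2234, and Slc30a7, which loads zinc into the Golgi, at 2347, 3322 and 1791. At 24 h, none of the 23 was higher (background 3.43%) and 3 were lower (background 7.8%) than at 0 h. These 3 were the magnesium carriers Slc41a1, at 1337, 1560.0 and 615, and Slc41a2, at 615, 438 and 200.5, and Slc39a12.

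**Figure D4:**
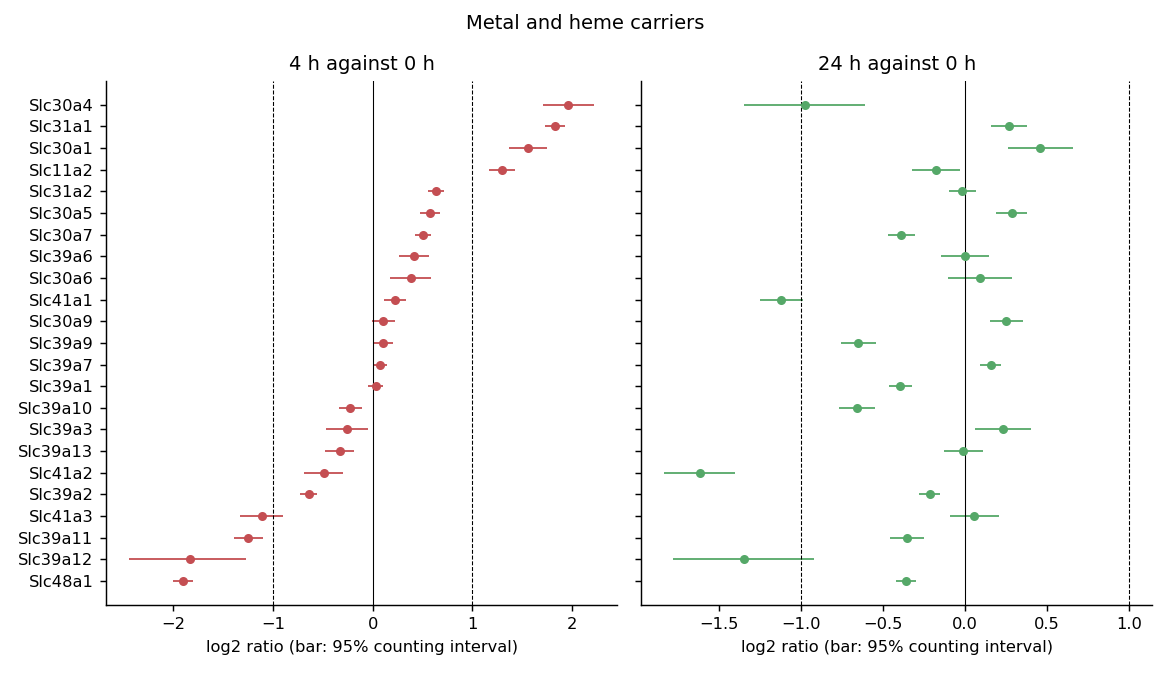
Log2 ratio to 0 h (horizontal axes) at 4 h (left) and at 24 h (right) for the 23 metal and heme carriers, in the same order in both panels, with 95% counting intervals as bars and dashed lines at 2-fold. At 4 h Slc30a4, Slc31a1, Slc30a1 and Slc11a2 lie beyond the upper line and Slc48a1 is the lowest, while at 24 h none lies beyond the upper line.

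The 21 carriers of inorganic ions and pH held the widest single member, with 5 higher (background 13.3%) and 5 lower (background 13%) at 4 h. Slc26a4, pendrin, an anion exchanger for chloride, bicarbonate and iodide (chr12:31519819-31559969, minus strand), had 5, 366 and 4 reads and levels of 4.67, 465 and 3.29. It was 99.5-fold higher (42.3 to 308) at 4 h, an interval made wide by the few reads at 0 h. Slc26a9, a chloride channel and exchanger of epithelia, had 38, 108 and 9 reads and levels of 35.5, 137 and 7.40, and was 3.86-fold higher (2.65 to 5.75) at 4 h. Both reached the minimum in the 4 h library alone, so their 4 h peak follows from the minimum. Both are known from airway epithelium, and Scgb1a1 was 3977 in that library against 90.6 at 0 h. Sftpc, a marker of alveolar type II cells, was at 7817, 6079 and 9649 and Epcam, a general epithelial marker, at 953, 159 and 334. Of the 11 epithelial markers, 4 were at least 2-fold higher at 4 h than at 0 h and 2 lower. The part of epithelial cells in the result was not tested. Slc4a7, a sodium bicarbonate cotransporter that guards phagosomal acidification in macrophages, was at 808, 2429.6 and 695 and 3.01-fold higher (2.77 to 3.26).

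Potassium chloride and sodium proton carriers went both ways. Slc12a9 was at 679.8, 1683 and 1038, 2.48-fold higher (2.26 to 2.71) at 4 h. Slc12a7, a potassium chloride cotransporter, was at 4364, 1182 and 1875 and 3.69-fold lower (3.44 to 3.97). Of the sodium proton exchangers, Slc9a9, of endosomes, was at 698, 829 and 528. Slc9a2, a form of the cell surface (chr1:40681712-40768885, plus strand), was at 889, 52 and 274 and 17.1-fold lower (12.5 to 24) at 4 h, the lowest ratio of all members. Slc9a4, at 4406, 1560.0 and 2532, Slc9a5, at 125, 38.1 and 87.9, and Slc9a7, at 793, 335 and 209.5, were lower too. Slc12a2, the sodium potassium chloride cotransporter, was at 1843, 1596 and 2428 and Slc8a1, the sodium calcium exchanger, at 2391, 3765 and 2128, both within 2-fold. At 24 h, 1 of the 21 was higher (background 3.43%) and 4 lower (background 7.8%). The higher was Slc26a11, a sulfate and chloride carrier, at 102, 236 and 204. The lower were Slc26a9, Slc9a7, Slc9a2 and Slc12a7. Slc9a7 lies on the X chromosome (chrX:20105755-20291764, minus strand), where the sex difference noted above bears on the comparison with 0 h.

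**Figure D5:**
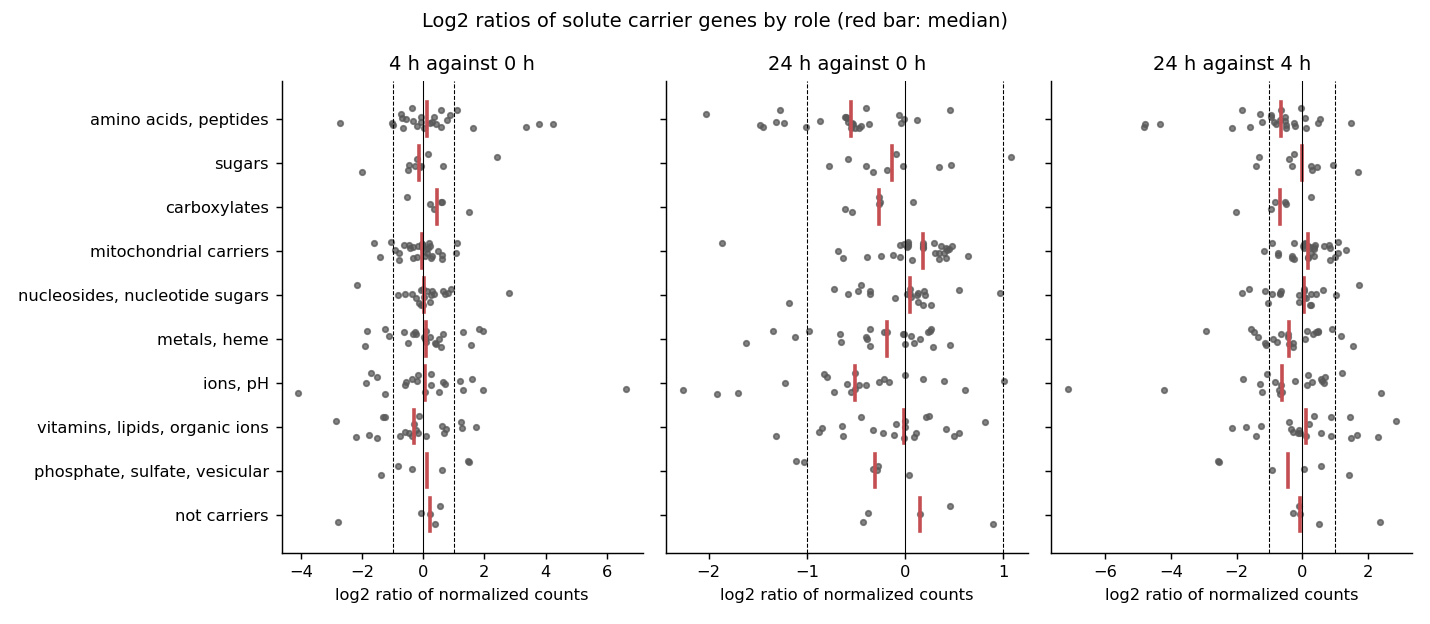
Log2 ratio of normalized counts (horizontal axes) for each member, grouped by the role of its family (rows), for 4 h against 0 h, 24 h against 0 h and 24 h against 4 h, with a red bar at each group's median and dashed lines at 2-fold. In the middle panel the amino acid and peptide median lies at -0.55 and the mitochondrial median at 0.18, and the horizontal scales differ between panels.

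Of the 21 carriers of vitamins, lipids, choline and organic ions, 6 were lower (background 13%) and 3 higher (background 13.3%) at 4 h. Slc22a17, the receptor for the iron-binding protein lipocalin-2, whose promoter is shown above (chr14:54906727-54913132, minus strand), had 569, 58 and 648 reads and levels of 531, 73.6 and 532. It was 7.22-fold lower (5.50 to 9.63) at 4 h. The gene of its ligand, Lcn2, was highest in the 4 h library, at 158, 3481 and 979, and is counted here among the neutrophil markers. Slc22a18, an organic ion transporter, was at 289, 62.2 and 307 and 4.64-fold lower (3.42 to 6.41). The vitamin carriers Slc19a1, for reduced folates, Slc5a6, for biotin and pantothenate, and Slc52a3, for riboflavin, were at 197, 69.8 and 196, at 308, 90.1 and 284 and at 827, 333 and 606, all lowest at 4 h. Slc27a1, a fatty acid transporter, was at 706, 297 and 818 and Slc27a4, its relative, at 864, 702 and 807. In contrast Slc23a2, the ascorbate transporter, was level at 4 h and 2.49-fold lower (2.36 to 2.62) at 24 h, at 4498, 4791 and 1809. Its row in the tables has the position and description of Slc23a1, so which gene these reads belong to is uncertain.

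The 3 higher members of that group were Slc22a15, Slc44a1 and Slc22a4. Slc22a15, an organic cation transporter, was at 262, 861 and 262 and 3.28-fold higher (2.85 to 3.78) at 4 h. Slc44a1, a choline transporter, was at 183, 446 and 102 and 2.43-fold higher (2.04 to 2.91), and its relative Slc44a2 at 5451, 9231 and 7265. Slc22a4, the ergothioneine transporter, was at 46.7, 109 and 82.2, near the minimum. Slc33a1, the acetyl-CoA carrier of the endoplasmic reticulum, was at 720.0, 1148 and 1050.2 and Slc6a8, the creatine transporter, at 78.4, 119 and 50.1.

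Of the 6 phosphate, sulfate and vesicular carriers, 2 were higher (background 13.3%) and 1 lower (background 13%) at 4 h. The lower 1 was the vesicular carrier Slc17a9. Slc20a1, a sodium phosphate cotransporter (chr2:129198773-129205104, plus strand), was at 3756, 10600.4 and 1837, 2.82-fold higher (2.72 to 2.93) at 4 h and 2.05-fold lower (1.94 to 2.15) at 24 h. Slc26a2, a sulfate transporter, was at 661, 1830.4 and 307, 2.77-fold higher (2.53 to 3.03) and then 2.16-fold lower (1.90 to 2.45). Of the 24 members at least 2-fold higher at 4 h, 4 were at least 2-fold lower than 0 h at 24 h: these 2, Slc7a11 and Slc26a9. Of all 169 members 19 were that much lower at 24 h, and of all genes 7.8%. Scaled by total reads, none of the 6 phosphate, sulfate and vesicular carriers was at least 2-fold lower at 24 h, and with the upper quartile 1 was. Slc34a2, the phosphate transporter of alveolar type II cells, which is also counted among the epithelial markers, was at 1039, 1607 and 852. Slc17a5, which exports sialic acid from lysosomes, was at 1058, 593 and 875 and Slc17a9, which loads ATP into vesicles, at 380.1, 145 and 389, both lowest at 4 h.

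Among the 5 symbols that are no carriers, Slc9a3r2, a PDZ scaffold protein, was at 462, 67.3 and 343 and 6.87-fold lower (5.17 to 9.30) at 4 h. Its relative Slc9a3r1 was at 2374, 2253 and 1832. Slc7a6os was at 692, 1010.4 and 947 and the pseudogene Slc2a4rg-ps at 139, 180.2 and 259.

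From 4 h to 24 h, 19 members were at least 2-fold higher (background 13%) and 34 lower (background 16.6%), with a median log2 ratio of -0.11 beside 0.01 for all genes. The 3 comparisons share libraries, so these values restate in part those above. Slc26a4 was 141-fold lower (54.7 to 522) at 24 h than at 4 h, Slc7a11 28.3-fold lower (26.1 to 30.8) and Slc1a2 27.5-fold lower (15 to 56). In the other direction Slc22a17 was 7.23-fold higher (5.52 to 9.63), Slc9a2 5.26-fold higher (3.79 to 7.46) and Slc22a18 4.94-fold higher (3.66 to 6.80). Of the 26 amino acid carriers 8 were lower and 1, Slc6a4, higher. Of the 30 mitochondrial carriers 4 were higher (Slc25a39, Slc25a4, Slc25a1 and Slc25a10) and 1, Slc25a30, lower. This balance turned with the scaling. With ribosomal protein genes held level, 0 mitochondrial carriers were higher and 4 lower (median log2 ratio -0.33) and 16 amino acid carriers were lower. With total reads, 7 mitochondrial carriers were higher and 0 lower. The median log2 ratio of all genes was -0.49 with ribosomal protein genes held level and 0.33 with total reads.

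Transporters outside the SLC nomenclature, such as ABC pumps and the organic anion carriers, also differed. Of 63 compared at 4 h, 13 were higher (background 13.3%) and 12 lower (background 13%). Slco2b1, an organic anion transporter, was at 5473, 251 and 2746, Mfsd7c, the choline transporter also called Flvcr2, at 4452, 112 and 1993, and Abcg1, the cholesterol exporter, at 41408, 6252 and 25472, all lowest at 4 h. Mfsd7b, the heme exporter Flvcr1, was at 888, 3274 and 1196 and Abca9 at 706, 3468 and 741, both highest at 4 h. At 24 h 1 of these 63 was higher than at 0 h (background 3.43%) and 8 were lower (background 7.8%).

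By the log2 fold changes in the authors' deposited table, 18 members lay at or above 1 at 4 h against 0 h (background 8.68%) and 18 at or below -1 (background 9.07%). The same table gave 0 and 5 members at 24 h against 0 h (background 0.645% and 2.55%) and 13 and 21 at 24 h against 4 h (background 7.56% and 10.5%). In the authors' deposited table, 10 of the 169 members had a p-value under 0.05 at 4 h against 0 h, 7 of 167 at 24 h against 0 h and 9 of 169 at 24 h against 4 h. The shares over all genes listed there were 5.16%, 3.16% and 4.44%. After Benjamini-Hochberg adjustment of those p-values over all genes, 0 members were under 0.05 in each comparison, and the lowest adjusted values of any gene were 0.592, 0.99993 and 0.998. These p-values come from 1 library per time point.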

How the data were processed

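The members and gene lists were chosen with earlier results of these data known. RNA from sorted lung macrophages was sequenced, with 1 library each at 0 h, 4 h and 24 h. Per the submitters' processing notes, DESeq2 and the mm10 build were used; the aligner and the counter are not named in the labels or headers (not given in the sources used here). Per the file headers, each of the 3 deposited tables compares 2 libraries and lists normalized signal per gene, the authors' log2 fold change, a test score and a p-value. In every signal column 100% of values were whole multiples of 1 read (within 0.001 reads), so reads were recovered as deposited counts over a size factor. The first signal column of the 24 h against 0 h table is headed 4 h but holds the 0 h reads in 12310 of 12310 shared genes, and 58 equal those of 4 h. That column, the only 1 of no sample, served no other step, and 0 h levels came from the 4 h against 0 h table. Slc39a8 and Slc4a11 would reach the minimum only in it. Repeated lines were dropped.

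Levels are reads over median-of-ratios factors (1.07 at 0 h, 0.788 at 4 h and 1.22 at 24 h). With 1 library per time point no test was run: plain ratios carry 95% Clopper-Pearson intervals. Exon lengths came from GENCODE M21 for 168 members. Named members are the 8 highest and 8 lowest ratios of each comparison, in each role the 2 highest levels and the highest and lowest ratio at 4 h, and a list of 53 macrophage transporters of which 49 are members; others are named where a count of 5 or fewer needed it or their pair was shown, after their values were seen. The roles follow family numbers, and Slc4a1ap and Slc2a4rg-ps were placed after the data were seen. On counts simulated with counting error alone, in genes with a mean of at least 100, 4-fold changes in 200 genes were recovered past 2-fold in 100%. The simulation held no spread between mice and no gene of lower mean, so it checks the counting step alone. Python 3.11.15, pandas 2.3.3, NumPy 2.4.6, SciPy 1.17.1 and matplotlib 3.10.9 were used. Alternatives were other scalings, thresholds, filters, a pseudocount and the authors' log2 fold changes. Values of some members are not reported here.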

Additional observations from a re-analysis of the deposited data

How the results depend on the processing

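No paired analysis was possible because there is 1 library per time point and the labels give no replicate numbers. The scalings run were total reads, the upper quartile, ribosomal protein genes held level and the authors' size factors. The last were not run for 24 h against 0 h. Each scaling moves every log2 ratio of a comparison by the same amount, here by less than the 2-fold threshold. No member past 2-fold could therefore change direction, so the kept directions are no check. Not all stayed past 2-fold. At 4 h against 0 h, 21 of the 24 higher did with total reads. At 24 h against 4 h, 8 of the 19 higher did with ribosomal genes. Those scalings moved the median of all genes, by log2 -0.16, 0.17 and 0.32 with total reads (4 h against 0 h, 24 h against 0 h, 24 h against 4 h), by -0.14, 0.10 and 0.24 with the upper quartile and by 0.03, -0.46 and -0.49 with ribosomal genes. The members' median moved with them. At 4 h against 0 h it was -0.16 with total reads and -0.14 with the upper quartile. At 24 h against 0 h it was -0.014 with total reads and -0.64 with ribosomal genes. At 24 h against 4 h it was 0.21, 0.12 and -0.61 with total reads, the upper quartile and ribosomal genes, and -0.27 among the members that reached 500.

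Counts of members at 4 h against 0 h were 41 higher and 39 lower past 1.5-fold and 12 higher and 13 lower past 3-fold. At 24 h against 0 h, the 2 higher became 4 with total reads, 7 past 1.5-fold, 4 without the minimum (206 symbols with reads in both libraries), and 0 with ribosomal genes, past 3-fold, by the authors' log2 fold change, with a pseudocount of 10 and among members that reached 500. The 19 lower became 46 with ribosomal genes, 40 past 1.5-fold, 6 past 3-fold and 5 by the authors' log2 fold change. At 24 h against 4 h, the 19 higher became 8 with ribosomal genes, 31 past 1.5-fold, 7 past 3-fold and 12 among members that reached 500, and the 34 lower became 61, 58 and 17 for the first 3 of these and 21 by the authors' log2 fold change. Fewer members past a stricter threshold follow from its construction. The changed counts under the scalings follow from the shift of every log2 ratio by the same amount, and why the scalings differ was not tested. Depth limits the members with few reads: Slc26a4 at 0 h rests on 5 reads and Slc6a14 on 9.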

Other observations

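Of the 169 members, 8 lie on the X chromosome, Slc25a5, Slc6a14 and Slc9a7 among them. Their log2 ratios of 4 h to 0 h ran from -1.24 to 3.78 with a median of -0.38, and those of 24 h to 0 h from -1.92 to 0.48 with a median of -0.41. The 0 h library held Xist reads and the later libraries Y-linked reads, and the 2 differences cannot be told apart. Lysosomal and vesicular transporters outside the SLC numbering that were compared included Spns1, a lysosomal lysophospholipid carrier, at levels of 2921, 760.3 and 3389.6 (0 h, 4 h, 24 h). Ctns, which exports cystine from lysosomes, stood at 1927, 1221 and 1344.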
